A study of Gallus gallus with 2 samples.

Results

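CTCF peaks on chicken chromosomes 3 and 5 were taken as every row of the deposited peak lists whose sequence name was one of these chromosomes. At 5 days this gave 369 peaks on chromosome 3 and 319 on chromosome 5, together 688 of 5830 listed (11.8%). At 10 days it gave 2089 and 1214, together 3303 of 21358 (15.5%). Peak heights played no part in the choice. The peaks came from chromatin immunoprecipitation and sequencing with a Millipore antibody against CTCF, in 1 library of Gallus gallus red blood cells labelled as 5 day old and 1 labelled as 10 day old. The study set these ages against each other as developmental stages. Whether the days were counted from laying or from hatching, and how many animals gave each library, is not in the labels. Fields on cell type and source name red blood cells for both libraries, whereas the growth and treatment fields of both describe mononuclear cells from a Histopaque gradient that were cultured and stimulated with PMA and Io. A peak list holds no expression values, so the cell type could not be checked against markers.

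CTCF is a DNA-binding protein with a row of zinc fingers. It marks insulators and, together with cohesin, the bases of chromatin loops, and in chicken red cells it is best known from the insulator beside the beta-globin genes. Chicken erythrocytes keep their nucleus. Chromosomes 3 and 5 belong to the macrochromosomes (1 to 5), which are large and less gene-dense than the microchromosomes.

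Each row gives a position and a whole-number score, and every peak is 399 bp wide. The scores ran from 13 to 738 over the whole 5 day list and from 22 to 3381 over the 10 day list. The sources used here do not state what a score counts, whether it was scaled to library size, how deep the libraries were, whether an input library existed or which genome build was used. A score was therefore read only as a percentile rank within its own list, from 0 for the lowest to 100 for the highest, with ties at their middle rank. Peaks with 1 bp or more in common with the other age's list are called shared and the rest unmatched. Over the whole lists, 57.6% of 5 day peaks and 15.8% of 10 day peaks were shared. All intervals are 95% and cover counting error only. Peaks lie close together in places and are not independent, so the intervals are too narrow, and the spread between animals cannot be measured from a single library per age.

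Chromosome 5 carried more CTCF peaks per Mb than chromosome 3 in the 5 day list, and nearly the same number per Mb in the full 10 day list. At 5 days the density was 5.13 peaks per Mb on chromosome 5 and 3.25 on chromosome 3, a ratio of 1.58 (1.36 to 1.84). At 10 days it was 19.5 and 18.4 per Mb, a ratio of 1.06 (0.988 to 1.14), whose interval includes 1. In the upper 50% of the 10 day scores the ratio was 1.14 (1.03 to 1.26), whose interval excludes 1. Lengths were counted up to the last peak end in either list, which gave 113.6 Mb for chromosome 3 and 62.2 Mb for chromosome 5. From the 5 day to the 10 day list the number of peaks thus differed by a factor of 5.66 on chromosome 3 (5.07 to 6.34) and of 3.81 on chromosome 5 (3.36 to 4.32). The chromosome 5 factor was 0.672 times that of chromosome 3 (0.568 to 0.796). On chromosomes 1, 2 and 4 together the factor was 5.41 (5.11 to 5.72). The chromosome 3 factor was 1.05 times that (0.924 to 1.19) and the chromosome 5 factor 0.704 times (0.614 to 0.809). Chromosome 3 made up 6.33% of the whole list at 5 days and 9.78% at 10 days. For chromosome 5 these parts were 5.47% and 5.68%, so it kept nearly the same part of the list.

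The contrast between the chromosomes lay in the shared peaks and in the unmatched 5 day peaks. Shared peaks were 1.71 times as dense on chromosome 5 as on chromosome 3 when counted over 5 day positions (1.40 to 2.09). Unmatched 5 day peaks were 1.41 times as dense there (1.11 to 1.79). The unmatched 10 day peaks, 1881 on chromosome 3 and 1022 on chromosome 5, had a density ratio of 0.993 (0.919 to 1.07). They made up most of the 10 day list on both chromosomes. When the 10 day list was shortened to its 5809 peaks scoring at least 29, close to the length of the 5 day list, chromosome 3 kept 463 peaks and chromosome 5 kept 332. The 10 day density ratio was then 1.31 (1.13 to 1.51), and the chromosome 5 factor was 0.830 times that of chromosome 3 (0.672 to 1.02), an interval that includes 1.

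**Figure D1:**
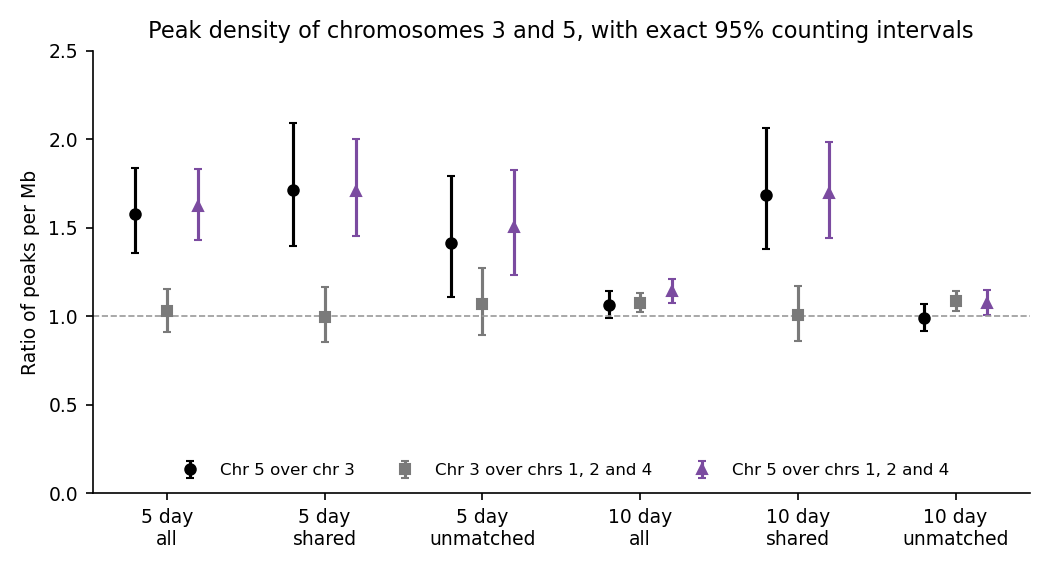
Ratio of CTCF peaks per Mb (vertical axis) between chromosome 5 and chromosome 3, and of each against chromosomes 1, 2 and 4 together, for all, shared and unmatched peaks of each list; points are ratios, bars are exact 95% counting intervals and the dashed line marks equal density. Chromosome 5 stands above 1 in every 5 day class and among shared 10 day peaks, while its ratio to chromosome 3 among unmatched 10 day peaks is 0.993.

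Chromosome 3 lay closer to the other macrochromosomes in density than chromosome 5 did. Against chromosomes 1, 2 and 4 together, which held 3.16 peaks per Mb at 5 days and 17.1 at 10 days, chromosome 3 had a density ratio of 1.03 at 5 days (0.913 to 1.15) and 1.08 at 10 days (1.02 to 1.13). For chromosome 5 the ratios were 1.62 (1.43 to 1.83) and 1.14 (1.07 to 1.21). Chromosome 5 is the shortest of the 5 by peak span, and the next shortest, chromosome 4, held 3.67 peaks per Mb at 5 days and 18.4 at 10 days.

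Each chromosome was then divided into bins of 5 Mb from its first base, 22 complete bins on chromosome 3 and 12 on chromosome 5. On chromosome 3 the 5 day counts ran from 4 to 36 peaks a bin with a median of 15, and on chromosome 5 from 14 to 37 with a median of 24. The 10 day counts ran from 55 to 131 with a median of 87.5 on chromosome 3 and from 60 to 122 with a median of 98 on chromosome 5. The fullest bin of chromosome 3 thus held 9 times the peaks of the emptiest at 5 days and 2.38 times at 10 days. On chromosome 5 these folds were 2.64 and 2.03. Part of any such fold is counting error, which is larger for the small 5 day counts. The variance of the counts over the complete bins was 3.83 times their mean at 5 days and 3.38 times at 10 days on chromosome 3, and 2.48 and 3.03 times on chromosome 5, where independent counts of equal density would give a value near 1.

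**Figure D2:**
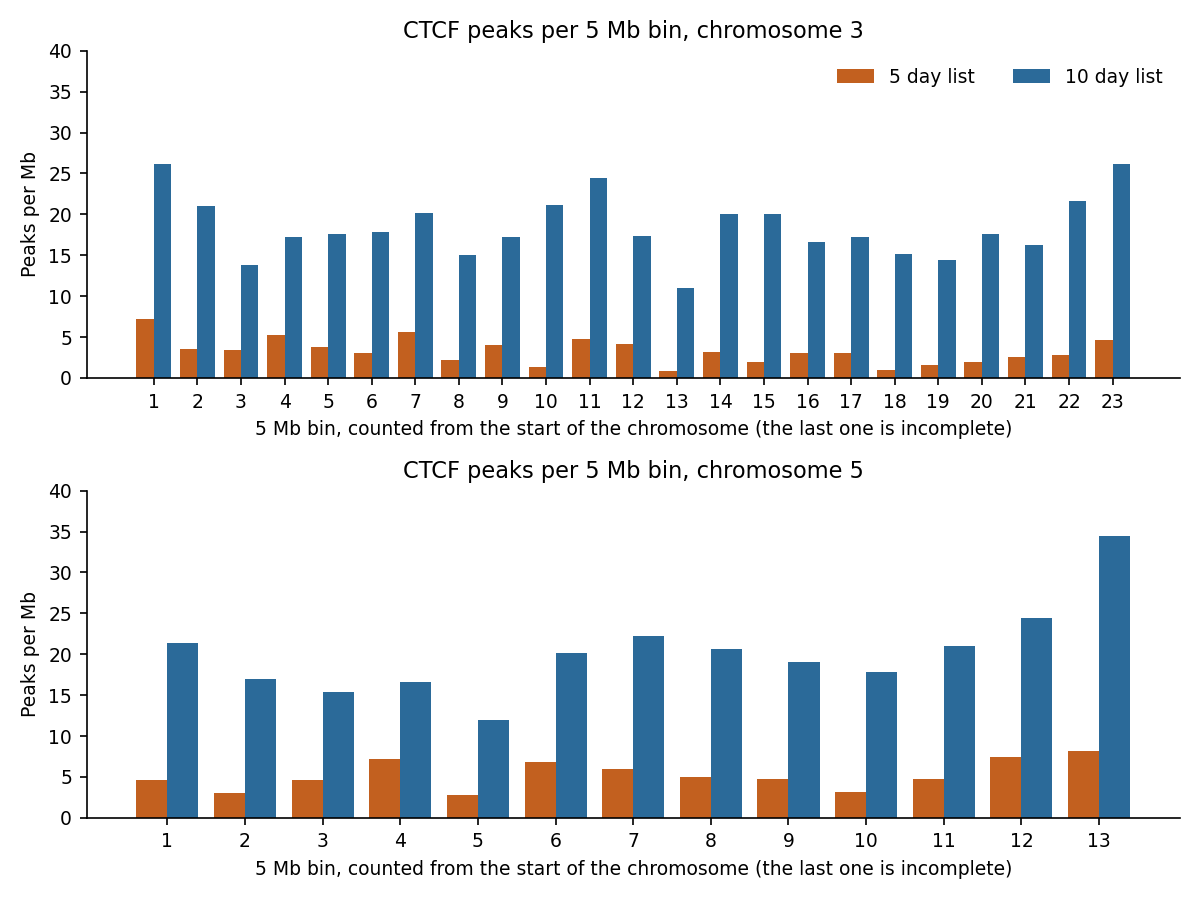
CTCF peaks per Mb (vertical axis) in successive 5 Mb bins of chromosomes 3 and 5, counted from the start of each chromosome (horizontal axis), for the 5 day and the 10 day list. Bars are single libraries without error bars; the last bin of each chromosome is incomplete and covers 3.64 Mb on chromosome 3 and 2.20 Mb on chromosome 5.

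Only complete bins were ranked. The first bin of chromosome 3, from 0 to 5 Mb, was its densest at both ages: 36 peaks lay in it at 5 days and 131 at 10 days. The next densest were the bin from 30 to 35 Mb at 5 days (28 peaks) and that from 50 to 55 Mb at 10 days (122 peaks). The sparsest bin at both ages ran from 60 to 65 Mb, with 4 and 55 peaks. Next came the bin from 85 to 90 Mb at 5 days (5 peaks) and that from 10 to 15 Mb at 10 days (69 peaks). Among the complete bins of chromosome 5, that from 55 to 60 Mb was densest at both ages, with 37 and 122 peaks. The bin from 20 to 25 Mb was sparsest at both, with 14 and 60. Per Mb, the incomplete last bin of chromosome 5 was denser than any complete one. It held 8.17 peaks per Mb at 5 days and 34.5 at 10 days, against 7.40 and 24.4 from 55 to 60 Mb. The incomplete last bin of chromosome 3 held 4.67 and 26.1 per Mb. Second in density among the complete bins of chromosome 5 were that from 15 to 20 Mb at 5 days (36 peaks) and that from 30 to 35 Mb at 10 days (111 peaks). Second in sparseness were the bins from 5 to 10 Mb at 5 days (15 peaks) and from 10 to 15 Mb at 10 days (77 peaks). The densest and the sparsest complete bin thus coincided between the ages on both chromosomes, whereas the complete bins in second place all differed. Over the bins as a whole the match was looser, with a Spearman rank correlation between the 5 and 10 day counts of 0.43 over the 22 bins of chromosome 3 and 0.55 over the 12 of chromosome 5. These values describe 2 libraries, and the shared peaks enter both counts. Between the counts of unmatched peaks alone the correlation was 0.21 on chromosome 3 and 0.087 on chromosome 5.

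The factor between the lists had a wider range over the bins of chromosome 3 than over those of chromosome 5. On chromosome 3 it was highest in the bin from 85 to 90 Mb, with 76 peaks at 10 days against 5 at 5 days (15.2 times, 6.24 to 48.2), and in the bin from 45 to 50 Mb, with 106 against 7 (15.1 times, 7.10 to 38.6). It was lowest in the bins from 15 to 20 Mb (3.31 times, 2.11 to 5.35) and from 30 to 35 Mb (3.61 times, 2.35 to 5.70). Chromosome 5 ranged from 2.31 times in the bin from 15 to 20 Mb (1.54 to 3.51) and 2.97 times from 25 to 30 Mb (2.0 to 4.52) to 5.56 times from 45 to 50 Mb (3.24 to 10.2) and 5.67 times from 5 to 10 Mb (3.25 to 10.6). These bins were picked as the extremes among 22 bins of chromosome 3 and 12 of chromosome 5. Overlap of their intervals therefore cannot tell whether the factor varied more on chromosome 3. The factor was higher where the 5 day count, its denominator, was lower (Spearman rank correlation -0.94 on chromosome 3 and -0.80 on chromosome 5). Within the complete bins of both chromosomes the shared 10 day peaks numbered 2 to 23 and the unmatched ones 53 to 110.

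The 5 day list left long stretches without any peak, and the 10 day list had peaks in each of those named here. On chromosome 3, no 5 day peak lay between 85615681 and 91032295, a stretch of 5.42 Mb. The 10 day list had 75 peaks in it, or 13.8 per Mb, with scores of 22 to 51 and a median of 24, and 1 of them was in the top 10% of its list. A second 5 day gap ran for 3.09 Mb from 60239668 to 63333019 and held 28 peaks at 10 days (9.05 per Mb) with scores of 22 to 36. Chromosome 5 had shorter 5 day gaps, of 2.23 Mb from 6429899 to 8660915 with 17 peaks at 10 days, and of 2.13 Mb from 21211313 to 23340895 with 23. The first of these contains a stretch of 1.53 Mb, from 6484409 to 8018116, without a peak in either list, so its 17 peaks lay in the rest. None of the peaks in these chromosome 5 gaps scored above 33 at 10 days. The median 10 day score was 24 and 23.5 in the chromosome 3 gaps and 25 and 23 in those of chromosome 5. Any 10 day peak inside such a gap is unmatched, and all unmatched 10 day peaks had a median of 24 on each chromosome. Of windows of 1 Mb, 28 of 113 on chromosome 3 (24.8%) and 3 of 62 on chromosome 5 (4.84%) had no 5 day peak. On chromosomes 1, 2 and 4 these shares were 23.5%, 22.7% and 22.3%, so chromosome 5 was the one that stood apart. The 10 day list left 1 window empty on each of chromosomes 3 and 5.

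Only 1 stretch longer than 1 Mb was empty at 10 days on either chromosome, and it was empty at 5 days as well. On chromosome 3 it ran from 11608042 to 13129704 (1.52 Mb) and on chromosome 5 from 6484409 to 8018116 (1.53 Mb). The next longest 10 day gaps were 0.451 Mb, from 82842698 to 83293212 on chromosome 3, and 0.598 Mb, from 17538366 to 18136496 on chromosome 5. The latter held 2 peaks at 5 days. Over chromosomes 1 to 5 the longest stretch empty in both lists was between 1.50 and 1.63 Mb on each, and the next between 0.451 and 0.714 Mb. Assembly gaps were not analysed here, so whether these stretches hold sequence was not tested. They lie in the bin from 10 to 15 Mb of chromosome 3, whose 10 day density was 13.8 per Mb with the stretch counted and 19.8 without it, and in the bin from 5 to 10 Mb of chromosome 5, where it was 17.0 with and 24.5 without. At 5 days the densities of these bins were 3.40 per Mb with and 4.89 without the stretch on chromosome 3, and 3.0 with and 4.33 without on chromosome 5. Without the stretch the chromosome 5 bin, named above for its few 5 day peaks, stayed below the 5.13 per Mb of its chromosome at that age. Its 10 day density of 24.5 then exceeded the chromosome value of 19.5. The chromosome 3 bin, named above as second sparsest at 10 days, was below its chromosome's 18.4 per Mb only with the stretch counted. Without it the bin stood above, at 19.8. Its 5 day density exceeded the chromosome 3 value of 3.25 either way. The chromosome values still include the stretches.

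Chromosome ends were compared with the interior by taking the first 5 Mb and the final 5 Mb before the last peak end. On chromosome 3 the ends together held 5.90 peaks per Mb at 5 days against 2.99 in the interior, a ratio of 1.97 (1.47 to 2.61), and 25.2 against 17.7 at 10 days, a ratio of 1.42 (1.24 to 1.62). On chromosome 5 the ratio was 1.28 at 5 days (0.959 to 1.70), an interval that includes 1, and 1.37 at 10 days (1.19 to 1.58). The ends of each chromosome differed. At 5 days the first 5 Mb of chromosome 3 had 2.41 times the interior density (1.66 to 3.41) and its final 5 Mb 1.54 times (0.960 to 2.35). On chromosome 5 the order was the other way, with 0.938 times at the start (0.584 to 1.44) and 1.63 times at the finish (1.14 to 2.28). At 10 days the start and the finish stood at 1.48 (1.23 to 1.77) and 1.37 (1.13 to 1.64) on chromosome 3, and at 1.16 (0.943 to 1.42) and 1.59 (1.32 to 1.89) on chromosome 5.

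The fullest 1 Mb window of an end was left out in turn for the start of chromosome 3 and the finish of chromosome 5. Leaving out the fullest window lowers the ratio by construction, so only the size of the remaining ratio is of use. Of the 36 peaks in the first 5 Mb of chromosome 3, 16 lay between 4 and 5 Mb, and without that window the start had 1.67 times the interior density (1.01 to 2.63). Both ends of chromosome 3 together then stood at 1.60 (1.13 to 2.20), an interval that still excludes 1. Ends of 2.5 Mb count that window and others as interior. The 5 day ratio of both ends on chromosome 3 was then 1.31 (0.801 to 2.04), whereas that of chromosome 5 was 1.55 (1.07 to 2.18), an interval that excludes 1. With ends of 10 Mb the ratios were 1.51 (1.18 to 1.92) on chromosome 3 and 1.04 (0.812 to 1.31) on chromosome 5, in the same order as with 5 Mb. Which chromosome had the higher 5 day end ratio therefore depended on the width of the ends. Of the 40 peaks in the final 5 Mb of chromosome 5, 14 lay between 57 and 58 Mb, and without them the finish had 1.26 times the interior density (0.809 to 1.89), an interval that includes 1.

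Compared with chromosomes 1, 2 and 4, the final 5 Mb of chromosomes 3 and 5 were dense at 10 days. The final 5 Mb of those 3 chromosomes together held 0.945 times their interior density at 10 days (0.827 to 1.07). The corresponding ratio was 1.45 times as large on chromosome 3 (1.14 to 1.82) and 1.68 times as large on chromosome 5 (1.34 to 2.09). At 5 days these values were 1.36 (0.777 to 2.30) and 1.44 (0.903 to 2.27). Both of those intervals include 1 and overlap the 10 day ones, so the ages are not separated here. The 3 chromosomes behind the joint value differed. At 10 days the final 5 Mb of chromosome 1 stood at 1.11 times its interior density (0.894 to 1.37), an interval that overlaps those of chromosomes 3 and 5. Chromosomes 2 and 4 stood at 0.816 and 0.892. At 5 days chromosome 1, at 1.99 (1.34 to 2.86), was above chromosomes 3 and 5, and chromosomes 2 and 4 stood at 0.682 and 0.655. At 5 days the first 5 Mb of chromosome 5 were less dense for their interior than those of chromosomes 1, 2 and 4 together. The ratio was 0.297 times that of these 3 chromosomes (0.179 to 0.476), where the first 5 Mb held 3.15 times the interior density (2.63 to 3.76). Chromosome 4, at 5.18 times (3.97 to 6.69), had the highest of these and gave 79 of the 139 peaks counted there. Chromosomes 1 and 2 stood lower, at 1.93 (1.29 to 2.78) and 2.27 times (1.51 to 3.30). At 10 days the ratio for the first 5 Mb of chromosome 5 was also lower, at 0.793 times that of chromosomes 1, 2 and 4 (0.627 to 0.996). Taken singly, chromosomes 1, 2 and 4 then stood at 0.944, 1.28 and 2.12 times their interior density, and chromosome 5 at 1.16. On chromosome 3 the first 5 Mb did not differ from chromosomes 1, 2 and 4 beyond counting error at either age.

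**Figure D3:**
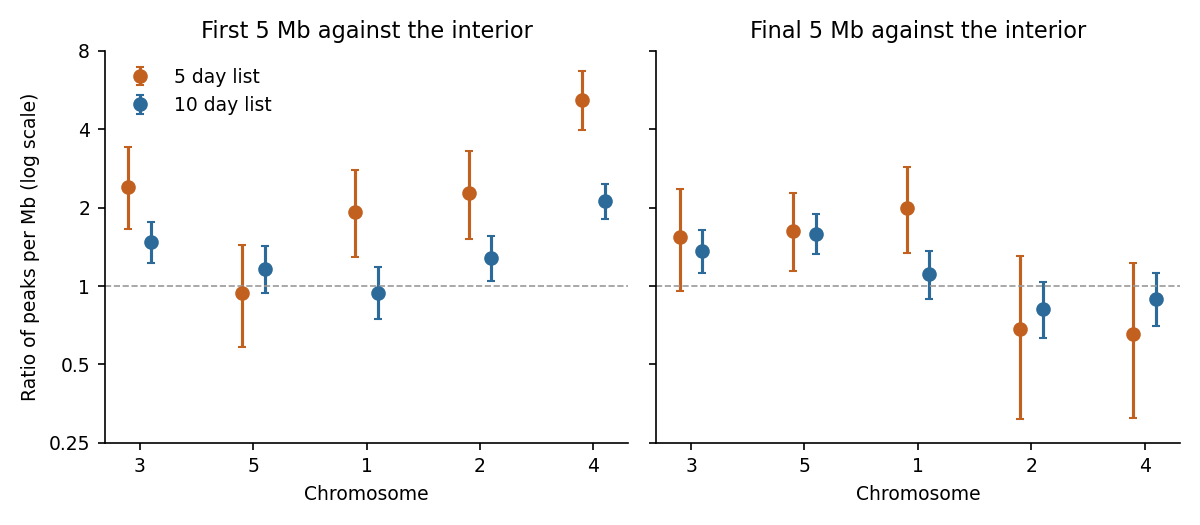
Ratio of peaks per Mb (vertical axis, log scale) in the first 5 Mb and in the final 5 Mb of a chromosome to its interior, for chromosomes 3 and 5 and, for comparison, 1, 2 and 4, in each list; points are ratios and bars exact 95% counting intervals. The final 5 Mb of chromosomes 3 and 5 lie above 1 at 10 days (1.37 and 1.59), and the first 5 Mb of chromosome 5 lie at 0.938 at 5 days.

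A smaller part of the 10 day peaks ranked high in the list on chromosome 3 than on chromosome 5, while the 5 day ranks overlapped. At 5 days the median score was 21 on chromosome 3 (interquartile range 16 to 35) and 23 on chromosome 5 (16 to 39), at percentile ranks of 46.4 (40.7 to 51.5) and 51.5 (49.1 to 57.6). At 10 days the medians were 24 (23 to 28) and 25 (23 to 29). The lowest 10 day score of 22 was held by 471 peaks on chromosome 3 (22.5%) and 229 on chromosome 5 (18.9%). Of the 10 day peaks, 124 on chromosome 3 (5.94%, 4.96 to 7.04) and 119 on chromosome 5 (9.80%, 8.19 to 11.6) were in the top 10% of the whole list, and the odds were 1.72 times as high on chromosome 5 (1.31 to 2.26). On chromosomes 1, 2 and 4 together this part was 6.82% (6.27 to 7.41). Against them the odds ratio was 0.862 for chromosome 3 (0.698 to 1.06) and 1.48 for chromosome 5 (1.19 to 1.83), so chromosome 5 was the one that differed from these macrochromosomes. In the whole list this part is about 10% by definition. Chromosome 5 was thus near the whole list, and chromosome 3 and chromosomes 1, 2 and 4 were below it. At 5 days 23 (6.23%) and 29 (9.09%) were in the top 10%, with an odds ratio of 1.50 (0.820 to 2.79) that does not separate the chromosomes.

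The single strongest site of these chromosomes lay on chromosome 3 at 98153108 to 98153506, with a 5 day score of 234, place 19 in its list. The overlapping 10 day peak, at 98152991 to 98153389, scored 627 and took place 25. The bin from 95 to 100 Mb that holds it had 10 peaks at 5 days, 9 of them shared. The next shared 5 day peaks of chromosome 3 were at 94683585 to 94683983 (score 100, with 95 at 10 days and starts 1 bp apart) and at 4166907 to 4167305 (score 99, with 48 at 10 days). The next shared 10 day peaks were at 5597873 to 5598271 (score 152) and 56524389 to 56524787 (score 136), where the 5 day scores were 38 and 41. These 5 day peaks took places 1410 and 1240 among the 5830 of their list.

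On chromosome 5 the highest 5 day peak was at 60157675 to 60158073, with a score of 173 (place 37), 2.04 Mb before the last peak end. Its 10 day partner scored 138. The next were at 38588230 to 38588628 (score 122, with 44 at 10 days) and 15766267 to 15766665 (score 101, with 87). The 10 day list put other sites first. Its highest peak there scored 171 (6429291 to 6429689) and overlapped a 5 day peak of score 22 that was the last before the 2.23 Mb stretch without 5 day peaks. It was followed by 57499514 to 57499912 (score 169, with 98 at 5 days) and 47036509 to 47036907 (score 163, with 48 at 5 days). The 3 highest shared peaks of chromosome 5 were therefore different sites at the 2 ages.

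The 3 highest unmatched peaks of each list and chromosome scored below the 3 highest shared ones, but still ranked high in their lists. Their percentile ranks were 84.9 to 96.0 at 5 days and 92.3 to 96.0 at 10 days. The 3 highest unmatched 5 day peaks of chromosome 3 lay within 5 Mb of each other. They were at 58210535 to 58210933 with a score of 76, at 56112656 to 56113054 with 56 and at 53463502 to 53463900 with 49. The nearest 10 day peaks started 54809, 36334 and 52502 bp away. On chromosome 5 they were at 57497565 to 57497963 with 66, at 26081615 to 26082013 with 53 and at 13698995 to 13699393 with 52. The first of these started 1949 bp from the second highest 10 day peak of the chromosome, and the others 58065 and 34414 bp from any 10 day peak. At 10 days the highest unmatched peaks of chromosome 3 were at 94162763 to 94163161 with a score of 52, at 85652261 to 85652659 with 51 and at 49456509 to 49456907 with 48. Those of chromosome 5 were at 49513674 to 49514072 with 70, at 53316218 to 53316616 with 58 and at 27083118 to 27083516 with 46. Their nearest 5 day starts were 36979 to 378242 bp away, and the peak at 85652261 lay inside the long 5 day gap of chromosome 3.

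Of the 369 5 day peaks on chromosome 3, 206 were shared (55.8%, 50.6 to 61.0), and of the 319 on chromosome 5, 193 were (60.5%, 54.9 to 65.9). Both shares were near the 57.6% of the whole 5 day list. At 10 days 208 of 2089 peaks were shared on chromosome 3 (9.96%, 8.71 to 11.3) and 192 of 1214 on chromosome 5 (15.8%, 13.8 to 18.0), against 15.8% of the whole 10 day list. Chromosome 5 thus stood at the level of the whole list and chromosome 3 below it. The odds that a 10 day peak was shared were 1.70 times as high on chromosome 5 as on chromosome 3 (1.37 to 2.11). Against chromosomes 1, 2 and 4, where 10.6% were shared, they were 0.928 times on chromosome 3 (0.787 to 1.09) and 1.58 times on chromosome 5 (1.32 to 1.87). At 5 days the odds ratio between chromosomes 5 and 3 was 1.21 (0.884 to 1.66), which does not separate them.

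Among complete bins the shared part of the 5 day peaks ran from 27.3% (3 of 11, from 35 to 40 Mb) to 9 peaks of 10 (from 95 to 100 Mb) on chromosome 3. On chromosome 5 it ran from 34.8% (8 of 23, from 10 to 15 Mb) to 79.2% (19 of 24, from 50 to 55 Mb). These bins, chosen after their values were seen, hold few peaks, and their intervals are wide (6.02 to 61.0 and 55.5 to 99.7 for the extremes of chromosome 3). At 10 days the share ran from 2.63% to 17.8% over the bins of chromosome 3 and from 10.4% to 22.8% over those of chromosome 5. Ends and interior had overlapping intervals in this respect: at 5 days 55.7% of the peaks in the ends of both chromosomes (46.5 to 64.7) and 58.5% in the interior (54.3 to 62.6) were shared.

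Shared peaks were the higher-ranked ones on both chromosomes. At 5 days the median percentile rank was 65.2 for shared (59.4 to 69.1) and 28.6 for unmatched peaks (28.6 to 33.2) on chromosome 3, and 66.0 (62.7 to 70.5) and 28.6 (22.6 to 33.2) on chromosome 5. At 10 days shared peaks had medians of 90.6 (88.4 to 92.0) and 90.8 (89.1 to 92.6) on chromosomes 3 and 5, and unmatched peaks 40.7 on both. In 5 bands of 20 percentile points each, the shared part of the 5 day peaks went from 18.0% in the lowest band (9.36 to 30.0) to 92.9% in the highest (82.7 to 98.0) on chromosome 3, and from 14.3% (6.38 to 26.2) to 89.2% (79.1 to 95.6) on chromosome 5. At 10 days it was 1.91% (0.877 to 3.60) in the lowest band and 46.0% (40.6 to 51.5) in the highest on chromosome 3, and 4.80% (2.42 to 8.43) and 54.5% (48.2 to 60.8) on chromosome 5. In the highest 10 day band chromosome 3 lay below the whole list, at 55.2% (53.8 to 56.7), without overlap of the intervals.

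**Figure D4:**
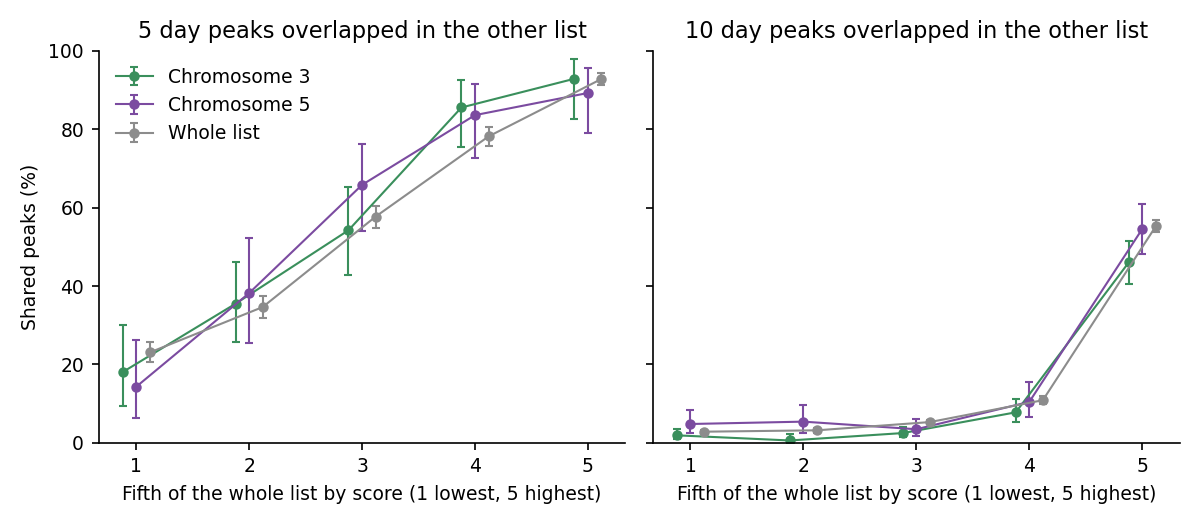
Percentage of peaks overlapped by a peak of the other list (vertical axis) in 5 score bands of 20 percentile points (horizontal axis, ranks within the whole list), for chromosome 3, chromosome 5 and the whole list; bars are exact 95% intervals. The 5 day curves climb from 18.0% on chromosome 3, 14.3% on chromosome 5 and 23.0% in the whole list to 92.9%, 89.2% and 92.8%, while 10 day peaks on these chromosomes stay at or under 10.4% until the highest band.

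Top lists of equal length were compared on each chromosome, with ties ordered by position. Among the 100 highest peaks of each age, 59 were common to both ages on chromosome 3 and 65 on chromosome 5. Over lists of 50, 100, 200 and 300 peaks, the part of the 5 day peaks in common lay between 46.7% and 59.0% on chromosome 3 and between 50.0% and 65.0% on chromosome 5. Of these 100 peaks at 5 days, 92 on chromosome 3 and 85 on chromosome 5 were overlapped somewhere in the full 10 day list. Of the 100 at 10 days, 93 and 95 were overlapped somewhere in the full 5 day list. High-ranked peaks were mostly shared elsewhere too. In the whole 5 day list 78.1% of peaks in the band from 60 to 80 and 92.8% of those in the highest band were shared. On chromosomes 1, 2 and 4 together, 440 of the 525 10 day peaks in the top 10% were shared. The part common to top lists of equal length was computed only for chromosomes 3 and 5. Shared positions matched closely: in 206 pairs on chromosome 3 and 190 on chromosome 5 of mutually nearest peaks, the median distance between starts was 39 bp and 35.5 bp, and 5 pairs in all had identical starts. The scores of the ages had Spearman correlations of 0.48 over the chromosome 3 pairs and 0.60 over the chromosome 5 pairs, over peaks that are not independent.

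A few pairs changed place by most of the list, and these were chosen after their values were seen. On chromosome 3 the peak at 99832749 to 99833147 scored 80 at 5 days, a percentile rank of 96.6, and its partner had the lowest 10 day score of 22. In the opposite direction the peak at 13130136 to 13130534, just after the 1.52 Mb stretch empty at both ages, had the lowest 5 day score of 13 and a partner scoring 42 at 10 days, a rank of 91.0. On chromosome 5 the corresponding peaks were at 57223825 to 57224223, with scores of 77 and 23, and at 37245291 to 37245689, with scores of 14 and 46.

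Neighbouring 5 day peaks on chromosome 3 started a median of 120.5 kb apart (95.8 to 147.5) and on chromosome 5 a median of 85.2 kb (67.6 to 100.9). At 10 days the medians were 34.7 kb (32.4 to 37.2) and 30.4 kb (27.8 to 32.8). In each case the mean was larger than the median, and the median was 0.390 and 0.436 of the mean at 5 days on chromosomes 3 and 5 and 0.637 and 0.593 at 10 days. The 5 day distances were thus the more uneven ones for their mean. Distances under 10 kb made up 10.6% (39 of 368) and 14.2% (45 of 318) of the 5 day distances and 19.3% (402 of 2088) and 22.3% (271 of 1213) of the 10 day distances on chromosomes 3 and 5.

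**Figure D5:**
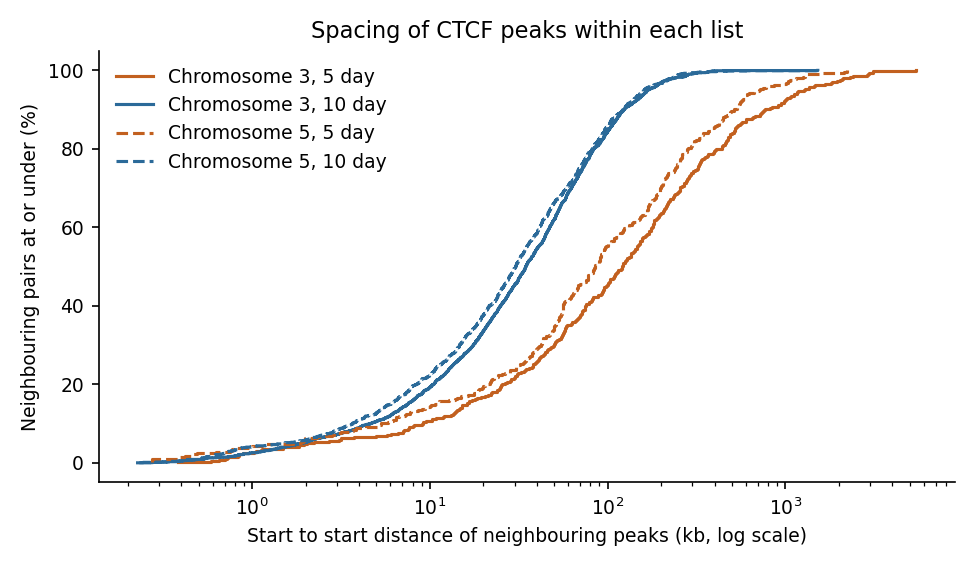
Percentage of neighbouring peak pairs (vertical axis) whose start to start distance is at or under a given value (horizontal axis, kb, log scale), for chromosomes 3 and 5 in each list. The 10 day medians are 34.7 kb on chromosome 3 and 30.4 kb on chromosome 5. The 5 day medians are 120.5 and 85.2 kb, with intervals that overlap.

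Groups of close peaks were fewer in the shorter 5 day list. A run was taken as at least 3 peaks, each starting less than 10 kb after the previous one. Runs numbered 5 on chromosome 3 and 3 on chromosome 5 at 5 days, and 66 and 50 at 10 days. They held 4.88% and 4.70% of the peaks at 5 days, and 10.6% and 13.8% at 10 days. A denser list places more peaks within 10 kb of each other, and clustering beyond density was not tested. The largest run, chosen after its values were seen, was on chromosome 5 from 57493848 to 57507963 at 5 days, with 9 peaks in 14.1 kb. The 10 day list had 8 peaks there, from 57493568 to 57507987. At each age 7 of the peaks were shared, and the highest scores were 98 and 169. It contains the highest unmatched 5 day peak of chromosome 5 and the second highest 10 day peak. On chromosome 3 the largest 5 day run held 6 peaks from 43652314 to 43658886, of which 3 were shared. Its largest 10 day run, also of 6 peaks, from 16972343 to 16995865, had none shared and scores of 22 to 28. Unmatched 5 day peaks lay a median of 14.3 kb from the nearest 10 day start on chromosome 3 and 12.7 kb on chromosome 5. Unmatched 10 day peaks lay a median of 156.6 kb and 86.9 kb from the nearest 5 day start. Of these, 1157 of 1881 (61.5%) and 457 of 1022 (44.7%) were more than 100 kb away. Such distances depend on the density of the other list. The mean spacing on chromosomes 3 and 5 was 54.4 and 51.3 kb at 10 days, and 308.8 and 195.5 kb at 5 days. Whether the distances differ from those of random positions was not tested.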

How the data were processed

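The members and the measures described here were chosen with earlier results of these data known. Each library has 1 peak list of 6 columns without a header, and the score in it is a whole number deposited by the authors for each peak. The sources used here do not give its meaning, the aligner, the peak caller, any threshold, the genome build or whether the lists were called separately. Depth is unknown. Positions are printed as the lists give them, with the first base counted as 1. A gene table of another assembly (GRCg7b) was not used, so no gene, motif or sequence is given. Groups came from the age label.

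Counts, shares and ratios were computed for each chromosome, with exact Clopper-Pearson, conditional binomial or conditional odds ratio intervals, and order-statistic intervals for medians. No test compares the ages, because each has 1 library. Bins were 5 Mb. Peaks, bins and stretches were named by rule: on each chromosome the 3 highest shared and unmatched peaks of each list, the 2 densest and sparsest complete bins, the 2 longest peak-free stretches at each age and the 2 highest and lowest bin ratios. Alternatives changed the overlap rule, the list length, the score limit, the width of the ends and the merging of peaks within 1 kb. The overlap, end and interval functions were tested on simulated data. Values were computed with scipy 1.17.1, pandas 2.3.3 and numpy 2.4.6 under Python 3.11.15 and plotted with matplotlib 3.10.9.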

Additional observations from a re-analysis of the deposited data

How the results depend on the processing

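Of 98 recomputed values, 66 stayed within the interval of the reported one and 32 moved out of it. Of the 66, 5 describe the 5 day list alone and could not change when the 10 day list was shortened. The overlap rules (at least 200 bp, or starts within 1 kb), ends of 10 Mb, other bin widths and the merging of peaks within 1 kb moved none. Ends of 2.5 Mb gave a 5 day ratio of 1.31 on chromosome 3 and of 1.55 on chromosome 5, the latter within the reported interval but with its own above 1, and the cause was not tested. The other moves came with shorter lists, which lose their low scores by construction. With the 10 day list shortened (score at least 29), the list ratio was 1.25 on chromosome 3 and 1.04 on chromosome 5, shared 5 day peaks were 43.9% and 48.3%, shared 10 day peaks 35.4% and 46.1%, and 10 day spacing 146.7 and 109.7 kb. Ranks were still those within the full lists, so a score limit raises them. Their medians were then 93.0 and 93.2 for shared and 80.3 and 82.4 for unmatched 10 day peaks, and 71.2 for shared 5 day peaks of chromosome 5. The density ratio of chromosome 5 to chromosome 3 at 10 days, an alternative added after seeing the data, was 1.31. In the upper 50% of the scores (at least 22 and 25), shared 5 day peaks were 76.9% and 73.7%, shared 10 day peaks 13.4% and 20.3%, spacing at 5 days 269.2 and 171.0 kb and at 10 days 67.6 and 58.9 kb. Median ranks, again within the full lists, were 74.7 and 76.4 for shared and 58.5 and 59.4 for unmatched 5 day peaks. For 10 day peaks they were 93.2 and 93.7 for shared and 65.5 on both chromosomes for unmatched ones. The 5 day end ratio of chromosome 3 was 1.43 (0.869 to 2.23), for which the cause was not tested. The 10 day density ratio of chromosome 5 to chromosome 3 was 1.14 (1.03 to 1.26), within the reported interval but with its own above 1. No paired analysis was possible because a single library stands for each age, and for the same reason none was left out in turn. As the depth is unknown, a position missing from a list cannot be read as unbound.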
